A study of Saccharomyces cerevisiae with 6 samples.

Results

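The genes described here are 47 genes of the budding yeast Saccharomyces cerevisiae that carry proteins from the endoplasmic reticulum (ER) to the Golgi and the plasma membrane. They were chosen by name: every gene whose symbol is SEC with a number, and COP1, RET2, RET3, SFB2, SFB3, SAR1, SED5, BET1, BET2, BET3, BOS1 and YPT1. They are 47 of the 4073 genes that the arrays name here, each read by 7 spots. SEC39 was not analysed here. The study hybridised 6 two-colour arrays of strain BY4741, a laboratory strain that lacks HIS3, LEU2, MET17 and URA3 in whole or in part: 3 arrays of a mutant with the gene RPD3 deleted (rpd3 deletion) and 3 of the RPD3 wild type. Each array set cells of 1 strain held at 39 °C for 20 minutes (Cy3) against unheated cells of that strain kept at 25 °C (Cy5). Both came from mid-log cultures of 200 ml in YPD rich medium, with no exchange of dyes. The 3 arrays of a strain are labelled as biological replicates from independent cultures, and nothing in the labels says whether the mutant is 1 clone.

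The secretory pathway begins where new proteins enter the ER through the Sec61 channel. Vesicles with the COPII coat then bud from the ER towards the Golgi, and vesicles with the COPI coat return escaped proteins and membrane to the ER. Rab GTPases and tethers bring a vesicle to its target, and SNARE proteins on both membranes fuse them. At the plasma membrane the tether is the exocyst. Most SEC genes were found as temperature-sensitive mutants that stop secretion, and many are essential for growth. Rpd3 is a histone deacetylase, brought to promoters by DNA-binding proteins, that lowers the transcription of many genes and takes part in raising others under stress.

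All values below are heat ratios, log2 of heated over control cells, or the strain difference, which is the heat ratio of the rpd3 deletion minus that of wild type. Neither the base nor the sign of the deposited log ratios is stated. Their range fits base 2, and the design text makes heated over control the likely sign. Heated cells carried Cy3, and which dye was the numerator is not stated. The sign is therefore an assumption that was not tested. With the other sign every rise below would be a fall, and every strain difference would change its sign. A heat ratio or a strain difference was called when limma's Benjamini-Hochberg adjusted p over 4073 genes was under 0.05, and "rose", "fell", "higher" and "lower" are used of such calls. Heat ratios are given as mean ± SD (n = 3 arrays), and strain differences as estimate ± standard error from limma (n = 3 per strain). Because the dyes were not exchanged, a rise or fall against 0 cannot be told apart from a dye effect of that gene. A dye effect shared by all arrays cancels in the strain difference. A strain difference does not tell whether the strains differed in the 25 °C level, in the 39 °C level or in both. The ratios describe whole cultures at an equal amount of RNA, so fewer cells of a kind and less RNA per cell cannot be told apart.

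Across all genes, which are not independent replicates, the ratios of 2 arrays correlated with r = 0.851 to 0.956 within the rpd3 deletion and 0.952 to 0.980 within wild type. Between the strains r was 0.504 to 0.853, so the ranges within and between strains met. Mutant array 2 correlated with wild-type array 3 at 0.853, with mutant array 3 at 0.851 and with mutant array 1 at 0.956. Mutant array 3 correlated with the wild-type arrays at 0.504 to 0.700. RPD3 had ratios of -0.11, -0.029 and -0.084 in the rpd3 deletion, where both channels lack its RNA, against 0.19, 0.20 and 0.26 in wild type, and its strain difference was -0.29 ± 0.093 (adjusted p = 0.0378), which missed the threshold in 5 of the 6 fits that left out an array (adjusted p 0.0836 to 0.154) and under the replicate block (adjusted p = 0.0511). HIS3, LEU2, MET17 and URA3, which should give no full transcript in either strain, averaged -0.095 in the rpd3 deletion and 0.15 in wild type. All 4 had a smaller ratio on every rpd3 array than on any wild-type array, and none passed the test. With arrays centred on these 4 genes, each strain difference moved up by 0.25, in all 4073 genes alike, and that of RPD3 became -0.043 (adjusted p = 0.777). The cause of this shift was not tested.

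After heat more secretory genes fell than rose, in both strains. In the rpd3 deletion 9 of 47 rose and 20 fell, beside 33.7% and 31.9% of all genes. In wild type 3 rose and 23 fell, beside 29.7% and 36.3% of all genes. As shares of the 47, these are 19.1% rises and 42.6% falls in the rpd3 deletion, and 6.38% rises and 48.9% falls in wild type. The median heat ratio of the 47 was -0.15 in the rpd3 deletion and -0.24 in wild type, where the median of all genes was 0.0026 and -0.053. By array the median of the 47 was -0.090, -0.19 and 0.078 in the rpd3 deletion, against -0.18, -0.27 and -0.21 in wild type. Mutant array 3 was the only one of the 6 on which the median lay above 0, and without mutant array 2 the median of the rpd3 deletion was 0.0089. The falls called in the rpd3 deletion numbered 13 without mutant array 1.

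**Figure D1:**
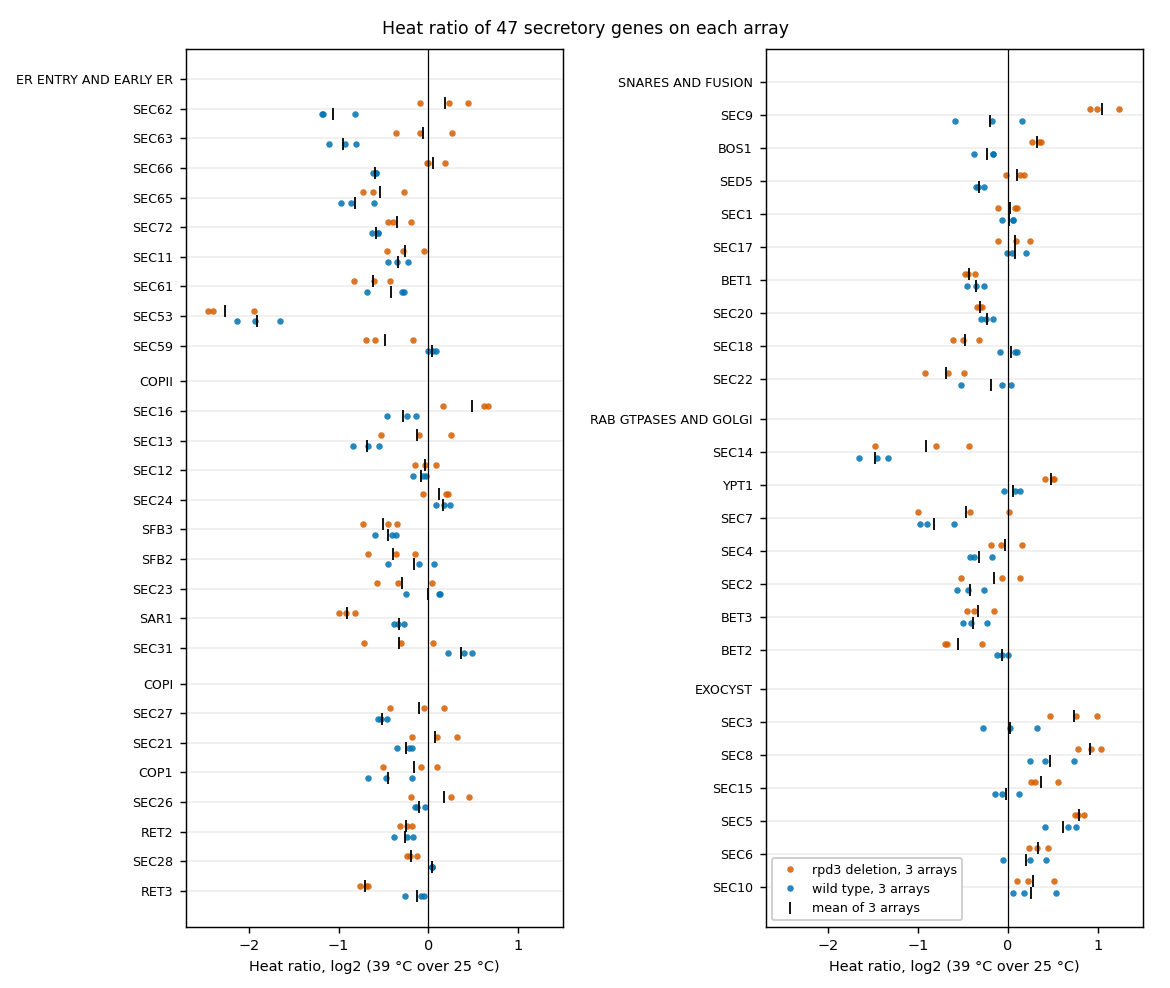
Heat ratio (log2, 39 °C over 25 °C) of the 47 secretory genes on each array, grouped by role, with 3 points for the rpd3 deletion (orange, upper row of each gene) above 3 points for wild type (blue) and a bar at each mean. SEC53 lies furthest to the left in both strains, and the exocyst genes at the lower right have means at or above 0 in both strains apart from SEC15 in wild type at -0.029.

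The direct test of the strain difference called 11 members higher in the rpd3 deletion and 6 lower, and left 30 uncalled. These shares, 23.4% and 12.8%, stand beside 24.8% higher and 21.0% lower among all genes. The median strain difference was 0.13 for the members and 0.021 for all genes. Most differences were small, with 45 of 47 under 1 on the log2 scale; SEC9 and SEC62, both at 1.25, were the others. In 14 members all 3 mutant arrays lay above all 3 wild-type arrays and in 7 below, beside 31.1% and 27.3% of all genes. The 17 called members were among these 21. The 11 higher genes were SEC9, SEC62, SEC63, SEC16, SEC3, SEC66, BOS1, SEC8, YPT1, SED5 and SEC15, and the 6 lower ones SEC31, SAR1, RET3, SEC59, SEC18 and BET2. Leaving out 1 array at a time gave 6 to 19 higher calls (6 without wild-type array 2 or without mutant array 1, 19 without mutant array 2). It gave 2 to 8 lower calls (2 without mutant array 1, 3 without wild-type array 1 or 2). With arrays centred on the 4 deleted genes 20 members were called higher and 0 lower by limma, and 3 were lower at an unadjusted p under 0.05. Of all genes 39.2% were called higher and 9.60% lower in that setting, so that 20 of 47 is near the share of all genes. The 6 lower genes kept a negative difference, with adjusted p of 0.06 for SAR1, 0.0781 for RET3, 0.0845 for SEC31, 0.16 for SEC59, 0.171 for SEC18 and 0.187 for BET2.

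**Figure D2:**
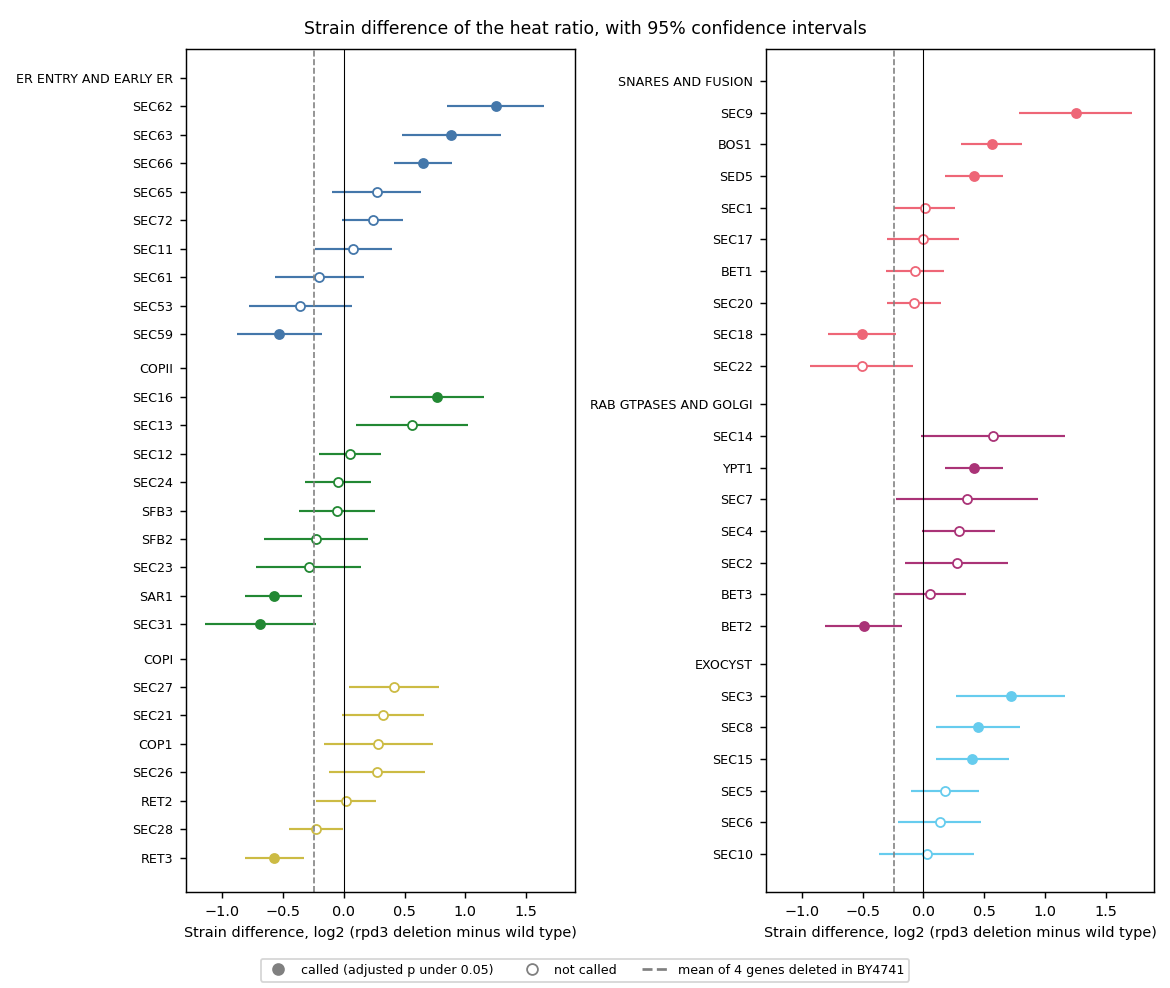
Strain difference of the heat ratio (log2, rpd3 deletion minus wild type) of each member with its 95% confidence interval, filled where limma's adjusted p was under 0.05, with a dashed line at the mean of the 4 genes deleted in BY4741. SEC62 and SEC9 lie furthest to the right at 1.25, and SEC31 furthest to the left at -0.69; the intervals of SEC59, SEC31, SEC18 and BET2 reach the dashed line, and with arrays centred on it none of the 6 lower genes was called.

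Of the 47, 13 fell in both strains, SEC5 and SEC8 rose in both, and 8 were called in neither. Of all genes 21.0% fell in both, 18.5% rose in both and 15.1% were called in neither. BOS1 alone was called in opposite directions, a rise in the rpd3 deletion and a fall in wild type, beside 7.10% of all genes with opposite calls. The other 23 were called in 1 strain: 6 rose and 7 fell in the rpd3 deletion, and SEC31 rose and 9 fell in wild type. Of all 4073 genes, 417 rose and 355 fell in the rpd3 deletion alone, and 368 rose and 419 fell in wild type alone. A call in 1 strain does not show that the strains differ, and 14 of the 23 members also passed the test of the difference. The like share among all genes was not counted.

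**Figure D3:**
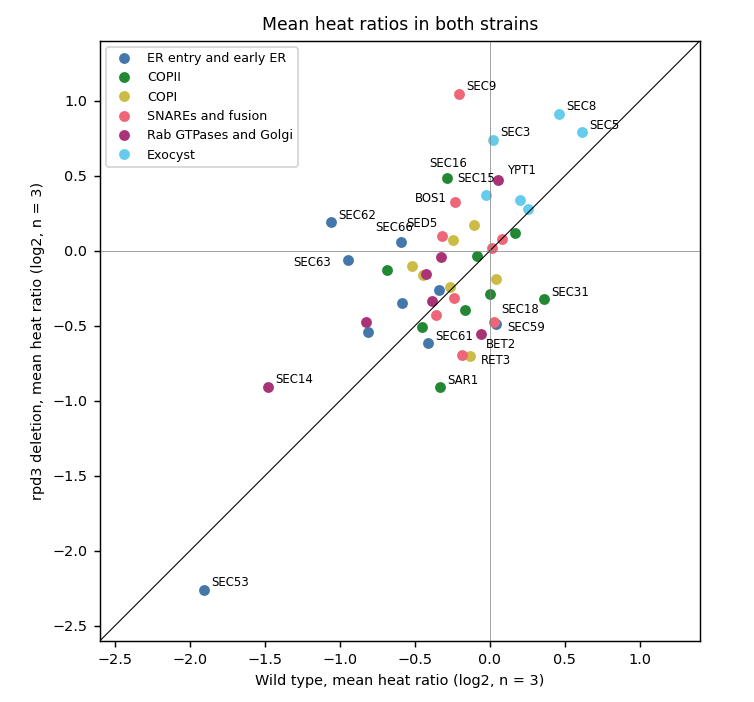
Mean heat ratio of each member (log2, n = 3 arrays per strain) in the rpd3 deletion (vertical axis) and in wild type (horizontal axis), coloured by role, with the line of equal ratios. SEC9, at 1.05 in the rpd3 deletion and -0.20 in wild type, lies furthest above the line with SEC62, and SEC53 is the lowest point in both strains.

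The first group, 9 genes of entry into the ER and of early ER enzymes, fell after heat in wild type. Of these, 8 of 9 were called down and 0 up, beside 36.3% and 29.7% of all genes, with a median heat ratio of -0.60. In the rpd3 deletion 6 of 9 fell and 0 rose, beside 31.9% and 33.7% of all genes, with a median of -0.35. With a trend on gene length removed, 4 fell there and 2 rose, SEC62 (adjusted p = 0.0463) and SEC66 (adjusted p = 0.0046), while SEC72 and SEC11 were no longer called. The strain difference was called higher in 3, SEC62, SEC63 and SEC66, and lower in 1, SEC59, beside 24.8% and 21.0% of all genes. SEC62 encodes a membrane protein that, with SEC63, SEC66 and SEC72, forms the complex that imports finished proteins through the Sec61 channel. Its heat ratios were 0.23, -0.096 and 0.44 in the rpd3 deletion, against -1.19, -1.17 and -0.82 in wild type. The gene thus fell on all 3 wild-type arrays and lay on both sides of 0 on the mutant ones, with no overlap. Its strain difference of 1.25 ± 0.17 (adjusted p = 0.00174) is a 2.38-fold higher ratio in the rpd3 deletion. SEC63, whose J domain recruits the chaperone Kar2 to the channel, had ratios of -0.090, -0.36 and 0.26 in the rpd3 deletion, against -0.81, -1.11 and -0.92 in wild type. Its groups were also apart, with a strain difference of 0.89 ± 0.17 (adjusted p = 0.00633). SEC66 (also SEC71) had ratios of -0.0022, 0.19 and -0.016 in the rpd3 deletion, against -0.59, -0.58 and -0.62 in wild type, the wild-type values close together, and differed by 0.65 ± 0.10 (adjusted p = 0.00288). SEC72, the last subunit of the complex, fell in both strains, with ratios of -0.40, -0.45 and -0.20 in the rpd3 deletion, against -0.56, -0.63 and -0.56 in wild type. Its mutant arrays also lay above its wild-type arrays, but the difference of 0.24 was not called (95% confidence interval -0.015 to 0.49, adjusted p = 0.107). The calls of SEC62, SEC63 and SEC66 passed in each of the 6 fits that left out an array. The fall of SEC72 in the rpd3 deletion had adjusted p of 0.0505 with mutant array 1 omitted.

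SEC61, the gene of the channel itself, had no strain difference past the test (-0.20, interval -0.57 to 0.17, adjusted p = 0.316). It fell in both strains, with ratios of -0.60, -0.43 and -0.82 in the rpd3 deletion, against -0.29, -0.27 and -0.68 in wild type. The fall in wild type had adjusted p of 0.0723 with wild-type array 3 omitted. SEC65, a subunit of the signal recognition particle that takes growing chains to the channel, fell as well, with ratios of -0.62, -0.73 and -0.27 in the rpd3 deletion, against -0.61, -0.97 and -0.86 in wild type. SEC11, the catalytic subunit of signal peptidase, had mean ratios of -0.26 ± 0.21 in the rpd3 deletion and -0.34 ± 0.11 in wild type. Both of these SEC11 values were called as falls (adjusted p = 0.0425 and 0.0148). The one in the rpd3 deletion stayed past the threshold in only 1 of the 6 fits that left out an array. The one in wild type had adjusted p of 0.0646 with wild-type array 2 omitted and 0.0791 with wild-type array 3 omitted.

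SEC53 had the largest fall of the 47 in both strains. It encodes phosphomannomutase, which makes the mannose donor for glycosylation of proteins in the ER. Its ratios were -2.39, -2.46 and -1.94 in the rpd3 deletion, against -1.93, -1.66 and -2.13 in wild type, a 4.80-fold fall in the rpd3 deletion (adjusted p = 2.11e-05) and a 3.75-fold fall in wild type (adjusted p = 1.52e-05). The arrays of the strains overlapped, and the strain difference of -0.36 was not called (interval -0.78 to 0.069, adjusted p = 0.141). SEC59 encodes dolichol kinase, which supplies the lipid on which the same glycans are built. Its ratios were -0.60, -0.17 and -0.69 in the rpd3 deletion, against 0.048, 0.082 and -2e-05 in wild type. It fell in the rpd3 deletion (adjusted p = 0.00478) and was near 0 on all 3 wild-type arrays, with a strain difference of -0.53 ± 0.15 (adjusted p = 0.024). That adjusted p was 0.0968 with mutant array 1 omitted, 0.0536 with mutant array 3 omitted, 0.0781 with wild-type array 1 omitted and 0.0803 with wild-type array 2 omitted.

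The 9 genes of the COPII coat and of ER exit moved in different directions. In the rpd3 deletion 1 rose and 3 fell, and in wild type 1 rose and 3 fell. These shares, 11.1% and 33.3%, stand beside 33.7% and 31.9% of all genes in the rpd3 deletion. In wild type 29.7% of all genes rose and 36.3% fell, so the falls are near the share of all genes in both strains. With a trend on gene length removed 5 fell in the rpd3 deletion and 0 rose in wild type. Centring on the deleted genes gave 5 falls and 0 rises in wild type. The strain difference was higher in SEC16 (11.1% of the 9) and lower in SAR1 and SEC31 (22.2%), beside 24.8% and 21.0% of all genes. Its median over the 9 was -0.055, and 0.19 under centring on the deleted genes, where the median of all genes was 0.27. SAR1 encodes the small GTPase whose activation starts the coat. Its ratios were -0.99, -0.92 and -0.82 in the rpd3 deletion, against -0.38, -0.34 and -0.27 in wild type. SAR1 fell in both strains and further in the rpd3 deletion, by -0.58 ± 0.10 (adjusted p = 0.00395), and this call passed in each fit that left out an array. SEC31, which forms the outer cage with SEC13, had ratios of -0.31, 0.050 and -0.72 in the rpd3 deletion, against 0.39, 0.48 and 0.21 in wild type. The wild-type values were all above 0, with a mean of 0.36 ± 0.14 called as a rise at adjusted p = 0.0492, while the mutant values straddled 0, with a mean of -0.32 ± 0.38. The strain difference was -0.69 ± 0.20 (adjusted p = 0.0249). Its adjusted p was 0.0734 with mutant array 1 omitted, 0.0848 with wild-type array 1 omitted and 0.091 with wild-type array 2 omitted. The rise in wild type had adjusted p of 0.079 with mutant array 1 omitted, 0.167 with wild-type array 1 omitted, 0.2 with wild-type array 2 omitted and 0.0705 with wild-type array 3 omitted. SEC13 went the other way, with ratios of -0.11, -0.52 and 0.25 in the rpd3 deletion, against -0.68, -0.84 and -0.55 in wild type. The protein is also part of the nuclear pore. Its mutant arrays all lay above its wild-type arrays, and its difference of 0.56 did not pass (interval 0.10 to 1.02, adjusted p = 0.0506).

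SEC16 encodes the large scaffold of ER exit sites on which the coat assembles. Its ratios were 0.66, 0.16 and 0.62 in the rpd3 deletion, against -0.24, -0.47 and -0.14 in wild type. It rose in the rpd3 deletion (adjusted p = 0.0078, and 0.0659 with mutant array 1 omitted) and was below 0 on every wild-type array without passing the test there (adjusted p = 0.0624). The strain difference of 0.77 ± 0.16 (adjusted p = 0.00867) passed in each fit that left out an array. SEC12, which exchanges the nucleotide of Sar1, and SEC23, which activates its GTPase, were called in neither strain and for no strain difference, with means of -0.036 ± 0.12 and -0.29 ± 0.31 in the rpd3 deletion and -0.086 ± 0.079 and -0.00080 ± 0.22 in wild type. The coat has a cargo-binding subunit, SEC24, with the paralogs SFB2 and SFB3, and their heat ratios were not alike. SEC24 had ratios of 0.19, -0.061 and 0.22 in the rpd3 deletion, against 0.089, 0.24 and 0.17 in wild type and was not called in either strain. SFB2 had ratios of -0.36, -0.15 and -0.68 in the rpd3 deletion, against -0.10, 0.058 and -0.45 in wild type, and SFB3 had -0.46, -0.73 and -0.35 in the rpd3 deletion, against -0.59, -0.41 and -0.37 in wild type. SFB3 fell in both strains (adjusted p = 0.00221 in the rpd3 deletion and 0.00357 in wild type), and SFB2 fell in the rpd3 deletion (adjusted p = 0.0289, and 0.0931 with mutant array 1 omitted, 0.132 with mutant array 3 omitted and 0.0542 with wild-type array 1 omitted). For none of the 3 did the strain difference pass: -0.050 for SEC24 (interval -0.32 to 0.22), -0.23 for SFB2 (-0.65 to 0.20) and -0.055 for SFB3 (-0.37 to 0.26).

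COPI is a coat of 7 subunits, and all 7 genes were measured. In the rpd3 deletion the 3 that fell were RET2, RET3 and SEC28. In wild type the 3 that fell were COP1, RET2 and SEC27, and 0 rose in either strain. The falls were 42.9% of the 7 in each strain, beside 31.9% of all genes in the rpd3 deletion and 36.3% in wild type. Of all genes 33.7% rose in the rpd3 deletion and 29.7% in wild type. With arrays centred on the deleted genes 1 fell in the rpd3 deletion and 5 in wild type. RET3, the zeta subunit, had ratios of -0.76, -0.69 and -0.67 in the rpd3 deletion, against -0.26, -0.084 and -0.050 in wild type. It was the 1 subunit with a called strain difference, -0.57 ± 0.10 (adjusted p = 0.00481), which passed in each fit that left out an array. Of all genes 24.8% were called higher and 21.0% lower. SEC28, the epsilon subunit, had ratios of -0.24, -0.13 and -0.20 in the rpd3 deletion, against 0.043, 0.044 and 0.035 in wild type, its wild-type values nearly the same. The mutant arrays all lay below, but the difference of -0.23 was not called (interval -0.45 to -0.011, adjusted p = 0.0802). Its fall in the rpd3 deletion (adjusted p = 0.0369) was lost in every fit that left out an array (adjusted p 0.0511 to 0.211). RET2, the delta subunit, averaged -0.25 ± 0.072 in the rpd3 deletion and -0.26 ± 0.11 in wild type, a difference of 0.018 (interval -0.23 to 0.26). Its fall had adjusted p of 0.151 with mutant array 1 omitted and 0.0501 with mutant array 2 omitted in the rpd3 deletion, and of 0.0516 with wild-type array 2 omitted and 0.0853 with wild-type array 3 omitted in wild type. The alpha, beta, beta prime and gamma subunits, COP1, SEC26, SEC27 and SEC21, had differences of 0.28, 0.28, 0.41 and 0.32, none of which passed the test. Under centring on the deleted genes, SEC27 (adjusted p = 0.0151), SEC21 (0.0181) and SEC26 (0.0442) were called higher. That is 3 of the 7, beside 39.2% of all genes. COP1 (0.0726) and RET3 (0.0781) were not called there. SEC27 had ratios of -0.050, -0.43 and 0.17 in the rpd3 deletion, against -0.53, -0.56 and -0.46 in wild type, with no overlap between the strains and adjusted p = 0.0679 for the difference. The fall of COP1 in wild type (mean -0.45 ± 0.24) had adjusted p of 0.138 with wild-type array 1 omitted and 0.089 with wild-type array 2 omitted.

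Of the SNARE and fusion genes, 9 were measured. In the rpd3 deletion 2 rose and 4 fell, beside 33.7% and 31.9% of all genes. In wild type 0 rose and 4 fell, beside 29.7% and 36.3%. SEC9, BOS1 and SED5 had a higher ratio in the rpd3 deletion (33.3% of the 9) and SEC18 a lower one (11.1%). Of all genes 24.8% were higher and 21.0% lower. SEC9 encodes the SNARE of the plasma membrane that pairs with Sso1 or Sso2 there and with Snc1 or Snc2 on the vesicle. Its heat ratios were 0.99, 0.91 and 1.24 in the rpd3 deletion, against -0.18, -0.60 and 0.16 in wild type. SEC9 rose 2.07-fold in the rpd3 deletion (adjusted p = 0.000468), the largest mean ratio of the 47 in that strain, and its wild-type values lay on both sides of 0. The strain difference of 1.25 ± 0.20 (adjusted p = 0.00297) passed in each fit that left out an array. SED5, BET1, BOS1 and SEC22 encode the 4 SNAREs that fuse COPII vesicles with the Golgi, and they did not move as a unit. BOS1 had ratios of 0.27, 0.34 and 0.36 in the rpd3 deletion, against -0.16, -0.38 and -0.17 in wild type. It was called as a rise in the rpd3 deletion (adjusted p = 0.00667) and a fall in wild type (adjusted p = 0.0255, and 0.0578 with mutant array 1 omitted, 0.0557 with wild-type array 1 omitted and 0.147 with wild-type array 2 omitted). Its strain difference was 0.56 ± 0.11 (adjusted p = 0.0057) and passed in each fit that left out an array. SED5 had ratios of 0.13, -0.018 and 0.18 in the rpd3 deletion, against -0.27, -0.33 and -0.36 in wild type. It differed by 0.42 ± 0.10 (adjusted p = 0.0147), with adjusted p of 0.0736 with mutant array 1 omitted and 0.0505 with wild-type array 2 omitted. BET1 fell in both strains to means of -0.43 ± 0.058 in the rpd3 deletion and -0.36 ± 0.098 in wild type, with a difference of -0.071 (interval -0.31 to 0.17). Its spots disagreed on mutant array 1, with an SD of 0.566 between them. SEC22 had ratios of -0.67, -0.49 and -0.92 in the rpd3 deletion, against -0.063, 0.034 and -0.53 in wild type. It fell in the rpd3 deletion (adjusted p = 0.00227), and its difference of -0.51 did not pass (interval -0.94 to -0.084, adjusted p = 0.0531).

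SEC18 encodes the ATPase that takes used SNARE complexes apart, and SEC17 its adaptor. The ratios of SEC18 were -0.50, -0.62 and -0.32 in the rpd3 deletion, against -0.088, 0.10 and 0.072 in wild type. It fell in the rpd3 deletion (adjusted p = 0.00175) and lay around 0 in wild type. Its strain difference was -0.51 ± 0.12 (adjusted p = 0.0123), with adjusted p of 0.0573 with mutant array 1 omitted. SEC17 was not called in any comparison, with means of 0.075 ± 0.18 in the rpd3 deletion and 0.077 ± 0.11 in wild type and a difference of -0.0022 (interval -0.30 to 0.29). SEC1, a regulator that binds the SNARE complex of the plasma membrane, was likewise uncalled, at 0.021 ± 0.12 in the rpd3 deletion and 0.012 ± 0.069 in wild type (difference 0.0090, interval -0.24 to 0.26). SEC20, a SNARE of the ER for returning vesicles, averaged -0.32 ± 0.029 in the rpd3 deletion and -0.24 ± 0.065 in wild type, both called as falls. The one in wild type had adjusted p of 0.0638 with wild-type array 2 omitted and 0.0727 with wild-type array 3 omitted.

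Of the 7 genes of Rab GTPases, their regulators and Golgi factors, 4 fell and 1 rose in the rpd3 deletion, beside 31.9% and 33.7% of all genes. In wild type 5 fell and 0 rose, beside 36.3% and 29.7%. The falls numbered 2 in the rpd3 deletion with arrays centred on the deleted genes, and 3 in wild type with a trend on gene length removed. YPT1, the Rab GTPase of traffic from the ER to the Golgi, was the 1 that rose. Its ratios were 0.52, 0.41 and 0.50 in the rpd3 deletion, against 0.080, -0.046 and 0.13 in wild type. The 3 mutant values were all above the wild-type values, and the difference of 0.42 ± 0.10 (adjusted p = 0.0143) had adjusted p of 0.0736 with mutant array 1 omitted and 0.0543 with wild-type array 2 omitted. SEC4, the Rab GTPase of secretory vesicles on their way to the plasma membrane and a relative of YPT1, had ratios of -0.082, -0.19 and 0.15 in the rpd3 deletion, against -0.38, -0.43 and -0.18 in wild type. Its strain difference of 0.29 did not pass (interval -0.011 to 0.59, adjusted p = 0.101). Its fall in wild type had adjusted p of 0.0771 with wild-type array 1 omitted and 0.0838 with wild-type array 2 omitted. SEC2, which activates Sec4, averaged -0.15 ± 0.34 in the rpd3 deletion and -0.43 ± 0.15 in wild type, with a difference of 0.27 (interval -0.15 to 0.70). BET2 encodes the beta subunit of the enzyme that attaches lipid anchors to Rab proteins. It had ratios of -0.68, -0.29 and -0.70 in the rpd3 deletion, against -0.069, 0.00024 and -0.12 in wild type. BET2 fell in the rpd3 deletion (adjusted p = 0.00159) and was near 0 in wild type. Its strain difference of -0.49 ± 0.13 (adjusted p = 0.0219) had adjusted p of 0.0955 with mutant array 1 omitted, 0.0513 with mutant array 3 omitted, 0.0703 with wild-type array 1 omitted and 0.0777 with wild-type array 2 omitted. BET3, a subunit of the TRAPP complex that activates Ypt1, had means of -0.33 ± 0.16 in the rpd3 deletion and -0.39 ± 0.14 in wild type, and a difference of 0.053 (interval -0.24 to 0.35).

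SEC14 and SEC7 had the widest spread between the mutant arrays. SEC14 encodes the transfer protein for phosphatidylinositol and phosphatidylcholine that the Golgi needs to form vesicles. Its ratios were -0.80, -1.49 and -0.44 in the rpd3 deletion, against -1.66, -1.45 and -1.33 in wild type. It fell in both strains, 1.88-fold in the rpd3 deletion (adjusted p = 0.00314) and 2.79-fold in wild type (adjusted p = 0.00023). Mutant array 2 lay among the wild-type arrays and mutant arrays 1 and 3 above them, and the difference of 0.57 was not called (interval -0.021 to 1.17, adjusted p = 0.1). SEC7, the activator of Arf GTPases at the late Golgi, showed the same order of the mutant arrays, with ratios of -0.42, -1.01 and 0.0067 in the rpd3 deletion, against -0.98, -0.91 and -0.60 in wild type. Its fall in the rpd3 deletion (adjusted p = 0.0461) had adjusted p of 0.121 with mutant array 1 omitted, 0.208 with mutant array 2 omitted, 0.0761 with wild-type array 1 omitted, 0.0748 with wild-type array 2 omitted and 0.0566 with wild-type array 3 omitted. Its difference of 0.36 was not called (interval -0.23 to 0.94).

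Of the 6 exocyst genes named SEC more rose than fell. These 6 had median heat ratios of 0.55 in the rpd3 deletion and 0.23 in wild type. Of these, 5 rose in the rpd3 deletion and 2 in wild type, and 0 fell in either. Of all genes 33.7% rose and 31.9% fell in the rpd3 deletion, and 29.7% rose and 36.3% fell in wild type. With a trend on gene length removed, 3 rose in the rpd3 deletion, without SEC15 (adjusted p = 0.0787) and SEC6 (adjusted p = 0.207), and the medians were 0.34 in the rpd3 deletion and 0.14 in wild type. Under centring on the deleted genes the wild-type median was 0.077. The exocyst is the complex of 8 proteins that ties secretory vesicles to the plasma membrane before fusion, and Sec3 is a subunit that binds that membrane. SEC8 had ratios of 0.92, 0.78 and 1.03 in the rpd3 deletion, against 0.41, 0.25 and 0.73 in wild type, and SEC5 had 0.74, 0.78 and 0.85 in the rpd3 deletion, against 0.67, 0.41 and 0.76 in wild type. Both rose in both strains (adjusted p = 0.000224 and 0.00016 in the rpd3 deletion, 0.0057 and 0.000472 in wild type), SEC5 with overlapping strains. SEC3 had ratios of 0.75, 0.47 and 0.99 in the rpd3 deletion, against 0.026, -0.28 and 0.32 in wild type. It rose in the rpd3 deletion (adjusted p = 0.0022) and was on both sides of 0 in wild type. SEC15, the subunit that binds Sec4 on the vesicle, had ratios of 0.30, 0.25 and 0.56 in the rpd3 deletion, against -0.067, -0.14 and 0.12 in wild type, again a rise in the rpd3 deletion (adjusted p = 0.00838). The strain difference was called higher in 3 of the 6, beside 24.8% of all genes. It was 0.72 ± 0.19 (adjusted p = 0.0201) for SEC3, 0.45 ± 0.15 (adjusted p = 0.0425) for SEC8 and 0.40 ± 0.13 (adjusted p = 0.0378) for SEC15. Each of these calls rests on several arrays: for SEC3 the adjusted p was 0.068 with mutant array 1 omitted, 0.0694 with wild-type array 1 omitted and 0.07 with wild-type array 2 omitted, for SEC8 0.122 with mutant array 1 omitted, 0.0936 with mutant array 3 omitted, 0.129 with wild-type array 1 omitted and 0.137 with wild-type array 2 omitted, and for SEC15 0.0923 with mutant array 1 omitted, 0.0946 with mutant array 3 omitted, 0.115 with wild-type array 1 omitted and 0.124 with wild-type array 2 omitted. SEC8 and SEC15 also missed the threshold once a trend with gene length was removed (adjusted p = 0.0694 and 0.0631), SEC8 with arrays centred on the median of all genes (0.0506) and SEC15 after quantile normalization (0.0532). SEC5, SEC6 and SEC10 had differences of 0.18, 0.13 and 0.025, none of which was called. The rise of SEC6 in the rpd3 deletion (mean 0.34 ± 0.11) had adjusted p of 0.0926 with mutant array 1 omitted and 0.0846 with mutant array 3 omitted. EXO70 and EXO84 encode the other 2 subunits, with strain differences of 0.14 (interval -0.13 to 0.41) and 0.10 (-0.12 to 0.33).

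Of 5 SNARE genes that act with the exocyst at the plasma membrane, the strain difference was called higher in SEC9, lower in SNC1, and not called in SNC2, SSO1 and SSO2. SNC1, a SNARE of the secretory vesicle, had ratios of -0.66, -0.42 and -0.68 in the rpd3 deletion, against 0.59, 0.70 and 0.51 in wild type, so that every mutant value was below 0 and every wild-type value above it. Its strain difference of -1.19 ± 0.12 (adjusted p = 0.000683) was the lowest of the 65 other pathway genes measured, whereas that of SEC9, its partner on the plasma membrane, was the highest of the 47 members. The call of SNC1 passed in each fit that left out an array. The paralog SNC2 rose in both strains, with ratios of 0.42, 0.70 and 0.19 in the rpd3 deletion, against 0.57, 0.91 and 0.85 in wild type, and its difference of -0.34 was not called (interval -0.72 to 0.036, adjusted p = 0.118). SSO1 and SSO2, paralogs that pair with Sec9, went in different directions in both strains: SSO1 rose, with means of 0.48 ± 0.18 in the rpd3 deletion and 0.32 ± 0.12 in wild type. SSO2 fell, with means of -0.56 ± 0.040 in the rpd3 deletion and -0.50 ± 0.097 in wild type; neither strain difference was called. The rise of SSO1 in wild type had adjusted p of 0.0929 without wild-type array 1, 0.0787 without wild-type array 3 and 0.172 under centring on the deleted genes, and the rise of SNC2 in the rpd3 deletion 0.054 without mutant array 1. Paralogs can share probe signal, and how the probes separate SNC1 from SNC2 and SSO1 from SSO2 was not analysed here.

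**Figure D4:**
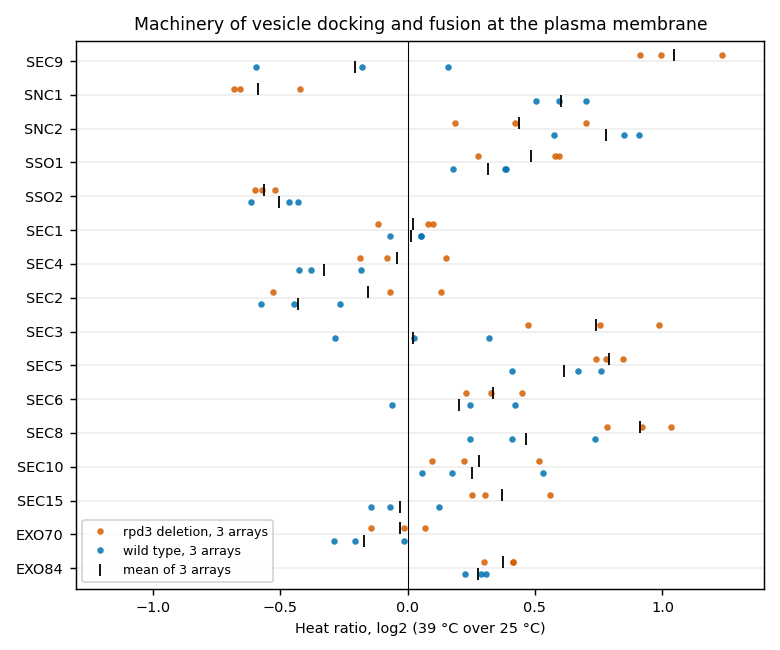
Heat ratio (log2, 39 °C over 25 °C) on each array of genes for docking and fusion at the plasma membrane: SNAREs, SEC1, the Rab GTPase SEC4 with SEC2, and the 8 exocyst subunits; orange points are the rpd3 deletion, blue points wild type, 3 arrays each, and bars the means. The 3 SEC9 points of the rpd3 deletion lie to the right of those of wild type and the 3 SNC1 points to the left, while the mutant means of the 8 exocyst genes run from -0.029 for EXO70 to 0.91 for SEC8.

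Beyond the members, 65 of 67 listed genes of the same pathway were measured. Their strain difference was called higher in 9 and lower in 10; 12 rose and 26 fell in the rpd3 deletion, and 15 rose and 33 fell in wild type. As shares, 13.8% were higher and 15.4% lower, beside 24.8% and 21.0% of all genes. The rises and falls made up 18.5% and 40.0% in the rpd3 deletion, beside 33.7% and 31.9% of all genes, and 23.1% and 50.8% in wild type, beside 29.7% and 36.3%. The largest difference was that of KAR2, the main chaperone of the ER lumen, which binds chains as they emerge from the channel. KAR2 had ratios of 2.78, 3.16 and 2.45 in the rpd3 deletion, against 1.42, 1.06 and 1.53 in wild type. It rose in both strains, and further in the rpd3 deletion by 1.46 ± 0.20 (adjusted p = 0.00191). In the same list of 15 partners of the translocon, the signal recognition particle and signal peptidase, 13 fell in wild type and 9 in the rpd3 deletion, and KAR2 was the 1 gene that rose in either. SRP54, the GTPase that reads the signal sequence, had ratios of 0.22, -0.38 and 0.40 in the rpd3 deletion, against -0.84, -0.92 and -0.53 in wild type, a strain difference of 0.84 ± 0.21 (adjusted p = 0.0166). That adjusted p was 0.0683 with wild-type array 1 omitted, 0.0678 with wild-type array 2 omitted and 0.066 with mutant array 1 omitted.

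The p24 proteins and other cargo receptors of ER vesicles had lower ratios in the rpd3 deletion where the test was passed. Of 17, 6 were lower (35.3%) and 0 higher, beside 21.0% and 24.8% of all genes, with a median strain difference of -0.28. Under centring on the deleted genes 1 was lower and 1 higher, and the median was -0.036, where all genes had a median of 0.27. After quantile normalization 10 were lower. ERP2, a p24 protein, was the lowest, with ratios of -1.51, -1.67 and -1.33 in the rpd3 deletion, against -0.91, -0.63 and -1.01 in wild type and a difference of -0.65 ± 0.14 (adjusted p = 0.00941); under centring on the deleted genes its adjusted p was 0.0601. EMP46, a lectin that moves with COPII vesicles, rose in both strains, with means of 0.71 ± 0.019 in the rpd3 deletion and 1.35 ± 0.15 in wild type, and differed by -0.64 ± 0.11 (adjusted p = 0.00401). ARF1, ARF2 and their regulators GEA1, GEA2, GCS1 and GLO3, which drive the COPI coat, all fell in wild type, beside 36.3% of all genes. Their means there were -1.14 to -0.60. In the rpd3 deletion 2 of these 6 fell, beside 31.9% of all genes, with means of -0.79 to -0.17. After quantile normalization or with a trend on gene length removed, 4 fell there. The strain difference was called in GCS1 alone (0.62 ± 0.17, adjusted p = 0.0239). That adjusted p was 0.0908 with wild-type array 1, 0.0718 with wild-type array 2 and 0.076 with mutant array 1 omitted. TRS65, a TRAPP subunit, had a higher ratio in the rpd3 deletion, with means of 0.49 ± 0.035 there and -0.030 ± 0.073 in wild type and a difference of 0.52 ± 0.096 (adjusted p = 0.00516). Of the pathway genes named outside the SEC and coat set, those other than KAR2, SRP54, ERP2 and SNC1 were chosen after their values were seen, as were USO1 and COG8.

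Of related gene sets, the 41 VPS genes were taken by symbol, which stands for vacuolar protein sorting, and the role of each was not checked. They had 11 higher and 10 lower strain differences and a median of -0.019, near that of all genes. These shares, 26.8% and 24.4%, stand beside 24.8% and 21.0% of all genes. The heat ratios of the VPS genes rose more often than those of the secretory genes: 20 of 41 rose and 7 fell in the rpd3 deletion, and 14 rose and 6 fell in wild type. No test of this difference between the sets was made. As shares, 48.8% rose and 17.1% fell in the rpd3 deletion, beside 33.7% and 31.9% of all genes. In wild type 34.1% rose and 14.6% fell, beside 29.7% and 36.3%. USO1 and the 8 COG genes encode tethers of vesicles at the Golgi, and 5 of these 9 had a higher ratio in the rpd3 deletion and 0 a lower one, beside 24.8% and 21.0% of all genes. USO1 had ratios of 0.85, 1.21 and 1.97 in the rpd3 deletion, against -1.38, -1.44 and -0.46 in wild type, a strain difference of 2.44 ± 0.35 (adjusted p = 0.00203) that exceeds that of every member of the SEC and coat set; COG8 followed with 1.09 ± 0.15 (adjusted p = 0.00163). The spots of USO1 disagreed more than those of any member, with an SD between spots of up to 0.841 on 1 array.

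Gene length moved with the strain difference and with the heat ratios. Over the 4065 genes with a coding length (introns included) in the RefSeq table of assembly R64, longer genes had slightly higher differences, with a Spearman correlation of 0.170, and over the 47 members it was 0.173. For the heat ratios of the members the Spearman correlation with length was 0.381 in the rpd3 deletion and 0.307 in wild type. Over all genes with a length it was 0.269 and 0.085. Genes share arrays and are not independent, so these are descriptions. In the COPI coat the 4 subunits over 2000 bases, COP1, SEC21, SEC26 and SEC27, had differences of 0.28 to 0.41, and the 3 shorter ones, RET2, RET3 and SEC28, differences of -0.57 to 0.018. With a trend on length removed from each array, the same subunits had 0.11 to 0.28 and -0.43 to -0.014, and RET3 still passed the test (adjusted p = 0.0186). SEC72 and SEC13 passed with this setting, at 0.38 (adjusted p = 0.0391) and 0.60 (adjusted p = 0.0468). Of the members' called heat ratios, 7 in the rpd3 deletion and 5 in wild type missed the threshold with it, among them the falls of SEC72 (adjusted p = 0.44) and BET1 (0.12) in the rpd3 deletion and of BOS1 (0.183) in wild type. Another 7 in the rpd3 deletion and 2 in wild type were newly called. In the rpd3 deletion these were falls of SEC23, SEC31, SEC27, COP1 and SEC2 and rises of SEC62 and SEC66. In wild type they were falls of SEC16 and SEC21.

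**Figure D5:**
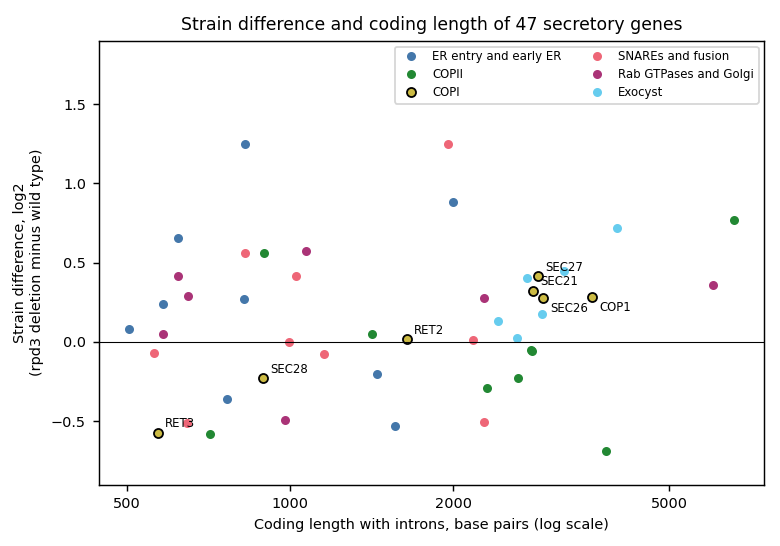
Strain difference (log2, rpd3 deletion minus wild type) of the 47 members against coding length with introns (base pairs, log scale), coloured by role, with the 7 COPI genes outlined and named. The 4 COPI genes over 2000 bases lie at 0.28 to 0.41, and RET3, the shortest, at -0.57.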

How the data were processed

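RNA was measured on 6 two-colour Agilent arrays, 3 of the rpd3 deletion and 3 of wild type, after labelling 500 ng of RNA by linear amplification, per the labels' protocols. The authors deposited 1 table of log ratios per spot, read here as log2 values; limma is named with no version number, per the submitters' processing notes, and how background was treated and arrays were normalized is not stated in the sources at hand. Scanner intensities were not analysed here, so dim spots could not be filtered out, and the number of arrays limits the precision. Of 45220 spots 10 had no value. The platform annotation named 28532 spots for 4073 genes, of which 4065 are in RefSeq's gene table (assembly R64) and 125 took a newer symbol from it.

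Spots were averaged per gene and array with pandas 2.3.3 in Python 3.11.15. All 6 arrays entered 1 fit in limma 3.58.1 (R 4.3.3) with a mean per strain (4 residual and 3.37 prior degrees of freedom), and contrasts for the rpd3 deletion against 0, wild type against 0, and rpd3 deletion minus wild type were adjusted by Benjamini-Hochberg over 4073 genes, with calls at an adjusted p under 0.05. The fit was tested on simulated data. The members, the roles and the lists were chosen with earlier results of these data known. Full values were set for the 4 highest and 4 lowest strain differences, the 3 highest and lowest heat ratios per strain, the largest difference of each role, 2 paralog sets, and the 2 highest and lowest genes of the pathway list; other genes are named from their values. Alternatives were each array left out, spot medians, a filter on spread between spots, 3 other scalings, removal of a trend with coding length, robust eBayes, separate fits and a replicate block. Promoter motifs were not searched and no sequences are printed.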

Additional observations from a re-analysis of the deposited data

Results flagged for a closer look

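The strain difference itself passed limma's test in the following genes, that is, the heat effect differed between the strains; the cause was not tested. Groups of 3 arrays were not searched for outlying samples. Of the members, the ratio was higher in the rpd3 deletion in SEC9 (log2 strain difference 1.25), SEC62 (1.25), SEC63 (0.89), SEC16 (0.77), SEC3 (0.72), SEC66 (0.65), BOS1 (0.56), SEC8 (0.45), YPT1 (0.42), SED5 (0.42) and SEC15 (0.40). It was lower in SEC31 (-0.69), SAR1 (-0.58), RET3 (-0.57), SEC59 (-0.53), SEC18 (-0.51) and BET2 (-0.49). In each of these 17 genes all 3 mutant arrays lay on 1 side of all 3 wild-type arrays, in the same values that entered the test. Of all genes, 31.1% had the mutant arrays above and 27.3% had them below. Among other genes of the pathway, KAR2 (1.46), SRP54 (0.84), GCS1 (0.62) and TRS65 (0.52) were higher, and SNC1 (-1.19), ERP2 (-0.65) and EMP46 (-0.64) were lower. The Golgi tether genes USO1 (2.44) and COG8 (1.09) were higher.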

How the results depend on the processing

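With arrays centred on the 4 genes deleted in BY4741, the strain difference was called higher in 20 members and lower in 0, with a median of 0.38, beside 39.2% higher, 9.60% lower and a median of 0.27 among all genes, and the median heat ratio of the members in wild type was -0.39; the setting adds 0.25 to every strain difference. Centring on the median of all genes gave 5 rises in wild type. Leaving out 1 array gave 6 to 19 members with a higher and 2 to 8 with a lower strain difference, 13 to 18 falls in the rpd3 deletion, and a median there of -0.23 to 0.0089; each such fit has fewer samples. The other counts and medians over the members stayed within 1.5 times, or 1 SD between arrays, of their values under every alternative run (119 of 132 values in all). With the length trend removed, the heat ratio of SEC11 in the rpd3 deletion turned to 0.051 (adjusted p = 0.667); the cause was not tested. Whether same-numbered arrays pair is not settled by their data. Their deviations from the strain mean correlated with r = -0.22, 0.21 and 0.418. Wild-type arrays 2 and 3 correlated best with their own number, and wild-type array 1 with mutant array 2 (r = 0.455). Deviations of 3 arrays from their mean sum to 0, so these values constrain one another. The correlation estimated for the replicate block was 0.274. The replicate block gave 13 members with a higher and 7 with a lower strain difference, including all 17 called without it, 9 rises and 19 falls in the rpd3 deletion, and 3 rises and 23 falls in wild type.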

Other observations

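The 7 spots of a member usually gave similar ratios. The SD between spots stayed under 0.3 on every array in 44 of the 47 members; it reached 0.566 for BET1 on mutant array 1, 0.312 for SEC28 on mutant array 3 and 0.309 for SEC15 on mutant array 1.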
